A study of Mus musculus with 3 samples.

Results

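The genes described here are 9 genes of contraction and of the response to serum response factor (SRF): the contractile genes Acta2, Tagln, Cnn1, Myl9, Tpm1 and Tpm2, the transcription factor gene Srf, and Ctgf and Cyr61, which encode secreted proteins of the CCN family. They were chosen by symbol, and all 9 were found among the 24421 genes counted. Their expression was measured by RNA-Seq in EL 16.7 cells, a female mouse embryonic stem (ES) cell line of F2:129S1/CastEiJx 129S1 background. Cells were transduced with lentivirus carrying a scrambled control shRNA, NUP153 shRNA-1 (KD-1) or NUP153 shRNA-2 (KD-2), and were selected with puromycin for 2 days. All 3 cultures were kept undifferentiated with LIF and serum on γ-irradiated mouse embryonic fibroblasts (MEFs) of Tg(DR4)1Jae/J mice, so that every library could hold fibroblast RNA. Each condition has 1 library, so the differences below have no replicate check, and the intervals given cover the counting of reads only.

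SRF binds a short DNA element, the CArG box, and drives genes of the actin cytoskeleton together with its cofactors of the MRTF family, which enter the nucleus when actin polymerises. With TCF cofactors, SRF drives immediate early genes in response to serum. YAP and TAZ, the effectors of the Hippo pathway, act through TEAD factors and are known for activating Ctgf and Cyr61 in spread, adherent cells. In fibroblasts that become activated, Acta2, Tagln and Cnn1 are classical markers of the contractile state.

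Promoter sequences are shown for Acta2, Myl9, Srf and Cyr61, since between them they hold each searched element through which SRF or TEAD factors are known to act, and since Acta2 was the member that differed most between both knockdown libraries. RefSeq promoter sequences (GRCm38.p6) of 250 bases before to 50 bases after the gene start were found for 7 of the 9 genes, all except Tagln and Ctgf. Each is written 5′ to 3′ on the strand of the gene, and capitals mark CArG boxes, CArG-like elements with 1 G or C among the 6 central bases, and CATTCC, the core bound by TEAD factors, on either strand.
Acta2 (chr19:34255324-34255623, minus strand): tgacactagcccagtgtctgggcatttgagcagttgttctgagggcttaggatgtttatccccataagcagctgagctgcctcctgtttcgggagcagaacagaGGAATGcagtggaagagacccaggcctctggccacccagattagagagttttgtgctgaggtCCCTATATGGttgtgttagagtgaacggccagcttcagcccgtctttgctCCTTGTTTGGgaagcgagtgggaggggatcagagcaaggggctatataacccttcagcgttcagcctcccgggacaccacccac
Myl9 (chr2:156775214-156775513, plus strand): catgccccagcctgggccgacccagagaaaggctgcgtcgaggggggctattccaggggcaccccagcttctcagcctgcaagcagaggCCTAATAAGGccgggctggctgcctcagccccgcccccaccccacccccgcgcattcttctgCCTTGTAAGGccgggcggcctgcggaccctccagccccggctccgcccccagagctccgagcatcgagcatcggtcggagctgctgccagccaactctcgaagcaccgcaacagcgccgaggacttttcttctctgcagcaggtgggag
Srf (chr17:46556113-46556412, minus strand): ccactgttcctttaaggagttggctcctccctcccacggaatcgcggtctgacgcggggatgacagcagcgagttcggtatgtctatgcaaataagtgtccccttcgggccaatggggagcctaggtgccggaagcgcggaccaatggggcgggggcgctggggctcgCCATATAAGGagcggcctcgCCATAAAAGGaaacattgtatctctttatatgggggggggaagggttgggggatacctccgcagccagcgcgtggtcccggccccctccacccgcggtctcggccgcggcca
Cyr61 (chr3:145649936-145650235, minus strand): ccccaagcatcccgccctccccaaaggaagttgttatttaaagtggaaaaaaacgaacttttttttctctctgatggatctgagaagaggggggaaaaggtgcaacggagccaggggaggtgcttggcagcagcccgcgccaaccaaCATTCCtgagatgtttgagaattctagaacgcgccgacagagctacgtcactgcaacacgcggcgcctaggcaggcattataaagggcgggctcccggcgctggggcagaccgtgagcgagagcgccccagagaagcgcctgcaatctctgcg

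The Srf promoter held CArG boxes 82 and 62 bases upstream of the start, and the Myl9 promoter held 1 CArG box 161 bases upstream. These were the only exact CArG boxes among the 7 promoters, while 1.63% of all 32851 promoters of this length hold one. Acta2 held CArG-like elements 84 and 34 bases upstream, CCCTATATGG and CCTTGTTTGG, and Myl9 held 1 at 99 bases upstream, an element found in 8.50% of all promoters. CATTCC, read on both strands, was found in Acta2, Tpm1 and Cyr61, and in 14.7% of all promoters. Cyr61 also held TATAAA 25 bases upstream of its start, and Srf held the same letters on the other strand, 38 bases upstream (13.6% of all promoters, both strands). No searched element was found in the windows of Cnn1 and Tpm2. These matches are descriptions of letters, and binding was not measured in these libraries.

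Nup153, the targeted gene, had 27870 (control), 16451 (KD-1) and 11126 (KD-2) reads, which gave log2 ratios to control of -0.99 and -1.43. Reads on genes numbered between 69839336 and 85258834 per library. Libraries were scaled to each other by the upper quartile of their counts, and the log2 ratios below were computed from these scaled reads. A ratio beyond 1.5-fold in either direction is named as past 1.5-fold, and was compared with the 16670 genes whose counts averaged 10 or more across libraries. All 9 genes passed this minimum. The median log2 ratio of all these genes was 0.02 in KD-1 against control, -0.02 in KD-2 against control and 0.12 in KD-1 against KD-2.

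Per length, the members covered a wide range of levels in the control library. In reads per kilobase of exon and 1000000 reads on genes (RPKM), Cyr61 was at 83.2, Tpm1 at 29.6, Ctgf and Acta2 both at 20.1, Myl9 at 11.2, Srf at 8.47, Tpm2 at 5.64, Tagln at 4.72 and Cnn1 at 1.22. In the KD-1 library Acta2 was at 6.96 RPKM, next to Srf at 6.99 and Myl9 at 6.86, and Ctgf at 21.2 was next to Tpm1 at 22.0. In the KD-2 library Acta2 was at 39.3 RPKM, above Ctgf at 27.3 and below Tpm1 at 45.7. Cyr61 was the highest and Cnn1 the lowest of the 9 genes in each library, at 61.1 and 0.566 RPKM in KD-1 and at 176 and 2.58 RPKM in KD-2.

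In the KD-1 library, 5 of the 9 genes were past 1.5-fold lower than in control and 0 were past 1.5-fold higher, while 14.2% of all genes tested were past 1.5-fold, 5.62% lower and 8.63% higher. All 5 were contractile genes. In the KD-2 library, 4 genes were past 1.5-fold higher than in control and 0 were lower, against 27.3% of all genes, 17.1% higher and 10.2% lower. These were Acta2, Cnn1, Myl9 and Cyr61. Counts in KD-2 depended on the scaling, since with library totals 7 of the 9 genes were past 1.5-fold higher, against 23.6% of all genes higher and 4.92% lower. With a fold above 2, 2 members were lower in KD-1 (4.62% of all genes past it) and 0 were higher in KD-2 (7.27%). Both comparisons use the same control library, so their values are given side by side and are not independent.

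Acta2 (chr19:34241090-34255590, minus strand), the smooth muscle α-actin, had 3192 (control), 1303 (KD-1) and 6031 (KD-2) reads. Its scaled reads were 2.87-fold lower in KD-1 than in control, a log2 ratio of -1.52 (95% interval -1.62 to -1.43), and 0.408% of all genes tested lay below this value. In KD-2 it was 1.75-fold higher than in control, a log2 ratio of 0.81 (0.75 to 0.87), with 90.6% of genes below. It was thus low in KD-1 and high in KD-2, and stood further from control in KD-1 than any other member.

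Cnn1 (chr9:22099216-22109630, plus strand) encodes calponin 1, which binds actin and restrains myosin. It had 241 (control), 132 (KD-1) and 493 (KD-2) reads, the fewest of the 9 genes. The log2 ratio was -1.09 for KD-1 (-1.41 to -0.78) and 0.92 for KD-2 (0.70 to 1.15). Its intervals are the widest of the 9 genes and still lie beyond 1.5-fold in both comparisons.

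Myl9 (chr2:156775420-156781658, plus strand), a regulatory light chain of myosin II whose phosphorylation starts contraction, had 941 (control), 680 (KD-1) and 1997 (KD-2) reads. Its log2 ratio was -0.70 for KD-1 (-0.84 to -0.55) and 0.98 for KD-2 (0.87 to 1.09), which is the highest ratio among the members in KD-2. The interval in KD-1 reaches to values within 1.5-fold, and that in KD-2 does not.

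Tagln (chr9:45929619-45936058, minus strand) encodes transgelin, an actin-binding protein also named SM22. It had 679 (control), 466 (KD-1) and 1021 (KD-2) reads, with log2 ratios of -0.77 for KD-1 (-0.94 to -0.60) and 0.48 for KD-2 (0.34 to 0.62). It was past 1.5-fold in KD-1 and within 1.5-fold in KD-2. Exons of the counted gene Pcsk7 and of the annotated antisense gene Gm48529 overlap Tagln on the opposite strand, and the strand that was counted is not given in the sources used here, so reads of these genes cannot be told apart from Tagln reads. Of the 50-base windows of Tagln transcripts, 58.3% occur on either strand in transcripts of these genes.

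The tropomyosins lie along actin filaments and set which myosins and binding proteins reach them. Tpm1 (chr9:67022590-67049406, minus strand) had 13898 (control), 12188 (KD-1) and 20693 (KD-2) reads, with log2 ratios of -0.42 for KD-1 (-0.45 to -0.38) and 0.47 for KD-2 (0.44 to 0.50). Tpm2 (chr4:43514711-43523765, minus strand) had 1187, 903 and 1759 reads in the same order, with log2 ratios of -0.62 for KD-1 (-0.75 to -0.50) and 0.46 for KD-2 (0.35 to 0.57). Both genes were ordered like Acta2 among the libraries, over a narrower range, and only the ratio of Tpm2 in KD-1 was past 1.5-fold. Tpm1 makes many isoforms from its alternative exons, and the counts do not separate them.

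Srf (chr17:46548329-46556175, minus strand) had 1772 (control), 1724 (KD-1) and 2297 (KD-2) reads. Its log2 ratio was -0.27 for KD-1 (-0.36 to -0.17) and 0.27 for KD-2 (0.18 to 0.36), and 15.2% and 68.3% of all genes tested lay below these values. Srf was within 1.5-fold of control in both knockdown libraries.

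The CCN genes differed from each other. Cyr61 (chr3:145646976-145649981, minus strand), an early YAP target that binds integrins, had 12156 (control), 10510 (KD-1) and 24760 (KD-2) reads, with log2 ratios of -0.44 for KD-1 (-0.48 to -0.40) and 0.92 for KD-2 (0.89 to 0.95). Ctgf (chr10:24595442-24598683, plus strand), the connective tissue growth factor, had 4159, 5179 and 5445 reads in the same order. Its log2 ratio was 0.09 for KD-1 (0.03 to 0.15) and 0.28 for KD-2 (0.22 to 0.34). Ctgf is the 1 member with a KD-1 ratio above 0, and 59.2% of all genes tested lay below this ratio. With DESeq2 size factors the KD-1 ratio of Ctgf was 0.02. The annotated gene Gm15270 overlaps exons of Ctgf on the opposite strand, and 17.2% of the 50-base windows of Ctgf transcripts are shared with it.

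**Figure D1:**
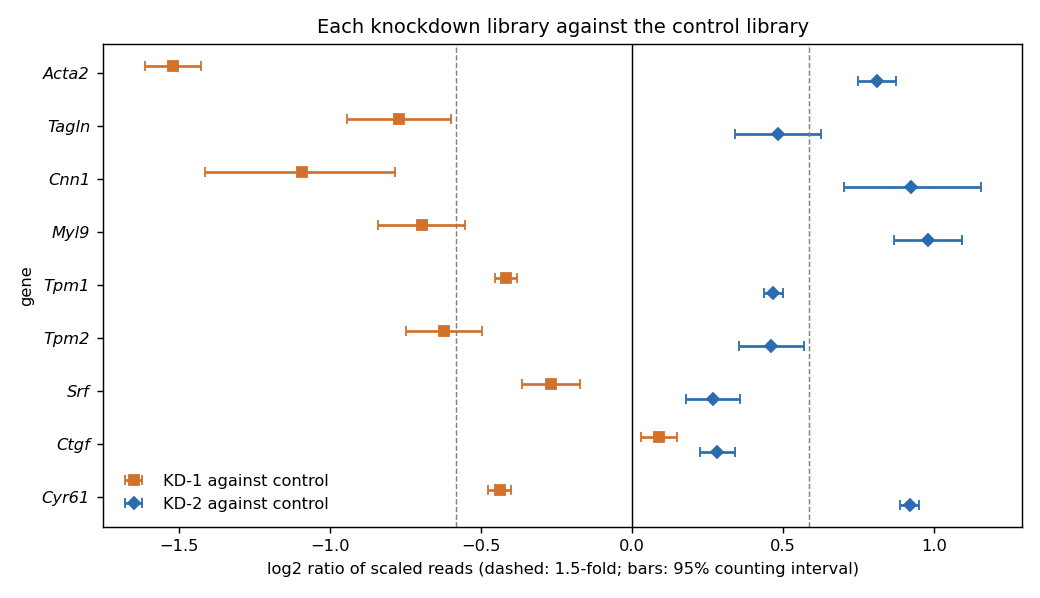
Log2 ratio of scaled reads (horizontal axis) of each gene in the KD-1 library (squares) and in the KD-2 library (diamonds) against the same control library, with 95% intervals for the counting of reads and dashed lines at 1.5-fold. The KD-1 values span -1.52 for Acta2 to 0.09 for Ctgf, and the KD-2 values span 0.27 for Srf to 0.98 for Myl9.

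Compared directly, without the control library, 7 of the 9 genes were past 1.5-fold lower in KD-1 than KD-2 and 0 were higher, while 30.1% of all genes tested were past 1.5-fold, 16.1% lower and 13.9% higher. With TMM 17.8% of all genes were lower and 11.3% higher, with DESeq2 size factors 19.0% and 9.33%, and with library totals 21.1% and 7.37%. The 7 genes were the 6 contractile genes and Cyr61. The log2 ratio was -2.33 for Acta2 (-2.42 to -2.25), a 5.03-fold difference, -2.02 for Cnn1 (-2.31 to -1.74), -1.68 for Myl9 (-1.80 to -1.55) and -1.36 for Cyr61 (-1.39 to -1.32). It was -1.25 for Tagln, -1.08 for Tpm2 and -0.89 for Tpm1. Srf at -0.54 (-0.63 to -0.44) and Ctgf at -0.19 (-0.25 to -0.14) were within 1.5-fold. Srf passed it with TMM (-0.59), DESeq2 size factors (-0.64) and library totals (-0.70), which made 8 of the 9 genes. Ctgf was at -0.25, -0.30 and -0.36 under these scalings, still within 1.5-fold. With a fold above 2, 6 of the 9 genes were lower, against 11% of all genes in either direction. The median of the 6 contractile genes was -1.46.

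The only comparison with more than 1 library in an arm is that of both knockdown libraries with control. With edgeR's quasi-likelihood test, which takes the spread from KD-1 and KD-2 alone with 1 residual degree of freedom, 0 of the 9 genes passed an FDR of 0.05, and 0 had an unadjusted p-value under 0.05. Of all 21164 genes with a read, 4 (0.0189%) were called, and 293 had an unadjusted p-value under 0.05. For 8 of the 9 genes the KD-1 and KD-2 ratios to control had opposite signs. Their group ratio averages opposing values and their difference sets the spread, so this test says little about them. Nup153, lower in both knockdown libraries with a group log2 ratio of -1.19, was not called either. The member log2 ratios lay between 0.01 for Tagln and 0.42 for Cyr61, with unadjusted p-values from 0.316 for Cyr61 to 0.982 for Tagln by edgeR. DESeq2 also called 0 of the 9 genes, and the share of all genes it called is not given here. Without replicates, how far single libraries of 1 condition differ is unknown. The edgeR likelihood ratio test was therefore run at assumed dispersions, the squared coefficient of variation between replicates, with an FDR under 0.05 and a fold above 1.5. At 0.01 it called 4 members in KD-1 against control, 4 in KD-2 against control and 7 between KD-1 and KD-2. Of all 24421 genes counted, it called 3.16%, 12.8% and 16.2% in the same order. This total includes genes without a read, which cannot be called. The shares are therefore not comparable with the shares past 1.5-fold, which are of 16670 genes. At 0.04 the likelihood ratio test called 0 members against control in KD-1 (0.287% of all genes counted) and in KD-2 (0.238%). Between both knockdowns it called Acta2, Cnn1, Myl9 and Cyr61 (2.52%). At 0.16 it called 0 genes in each comparison.

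Other members of the same gene families are given beside the 9 genes, and the differences between genes were not tested. Among actins, Actb and Actg1, the cytoplasmic actins, were at 1162 and 1133 RPKM in control, with log2 ratios in KD-1 against KD-2 of -0.48 and -0.09. Actg2, the enteric smooth muscle actin, was at 1.08 RPKM with a ratio of -2.0, beside -2.33 for Acta2. Of the 2146 windows of 50 bases in Acta2 transcripts, 7 also occur in transcripts of other genes, among them Actg1. For the tropomyosins, Tpm4 was at 102 RPKM in control with a ratio of -0.55, and Tpm3 at 19.9 RPKM with a ratio of 0.46.

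For the calponins, Cnn2 was at 27.3 RPKM in control with a KD-1 against KD-2 log2 ratio of -1.36, and Cnn3 at 75.1 RPKM with 0.04, beside -2.02 for Cnn1. For the transgelins, Tagln2 was at 42.7 RPKM with -0.23 and the neuronal Tagln3 at 6.84 RPKM with 0.78, beside -1.25 for Tagln. For the myosin light chains, Myl6 was at 133 RPKM with -0.45, Myl12a at 75.2 RPKM with -0.38 and Myl12b at 24.8 RPKM with 0.24, beside -1.68 for Myl9. The count of paralogs past 1.5-fold depended on the scaling. Of the 16 that averaged 10 or more reads, 6 were lower in KD-1 than KD-2 with upper-quartile scaling, 7 with TMM, 8 with DESeq2 size factors and 9 with library totals, and 1 was higher with each. Of all genes tested, 16.1%, 17.8%, 19.0% and 21.1% were lower and 13.9%, 11.3%, 9.33% and 7.37% higher in the same order. Among the other CCN genes, Wisp2 was at 20.9 RPKM with a ratio of -2.20, Wisp1 at 1.75 RPKM with -1.18 and Nov at 61.3 RPKM with -0.74. Among the 5 CCN genes averaging 10 or more reads, the ratios ran from -2.20 for Wisp2 to -0.19 for Ctgf. Wisp3, with 7 (control), 14 (KD-1) and 4 (KD-2) reads, stayed under this minimum and had a ratio of 1.57.

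Other genes of the pathways were described by their counts, with no test. Among 20 further SRF and MRTF targets of the cytoskeleton, 0 were higher and 2 were lower past 1.5-fold in KD-1 than in control, 7 were higher and 0 lower in KD-2, and 1 was higher and 7 were lower in KD-1 than KD-2. Of all genes tested, 8.63% were higher and 5.62% lower in the first comparison, 17.1% and 10.2% in the second, and 13.9% and 16.1% between the knockdowns. With DESeq2 size factors and with library totals, 0 of the 20 were higher and 11 lower in KD-1 than KD-2, while 9.33% and 7.37% of all genes were higher and 19.0% and 21.1% lower under these scalings. The list's median log2 ratio in KD-1 against KD-2 was -0.49, from -1.43 for Fhl2, a LIM domain protein, to 0.64 for Csrp2. Among 8 immediate early genes driven by SRF and TCF factors, 0 were higher and 2 lower past 1.5-fold in KD-1 than in control, 4 were higher and 1 lower in KD-2, and 0 were higher and 5 lower in KD-1 than KD-2, beside the same shares of all genes. Junb was lowest between the knockdowns at -2.04 and Egr1 highest at 0.45, and Egr1 was the 1 gene past 1.5-fold lower in KD-2 than in control, at -0.81. Myocd, the smooth muscle cofactor of SRF, had 2 (control), 4 (KD-1) and 4 (KD-2) reads.

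Of 20 further YAP and TAZ targets, 13 were past 1.5-fold higher and 0 lower in KD-2 than in control, while 17.1% of all genes tested were higher and 10.2% lower, and their median log2 ratio was 0.76. In KD-1 against control, 0 were higher and 3 were lower (8.63% and 5.62% of all genes), with a median of -0.05. In KD-1 against KD-2, 11 of the 20 were past 1.5-fold lower (16.1% of all genes), with a median of -0.80, from -1.77 for Ccdc80 to 0.31 for Nuak2. Cyr61, at 0.92 in KD-2 and -0.44 in KD-1 against control, and Ctgf, at 0.28 and 0.09, lay on either side of the KD-2 median of this list. The 15 Hippo pathway components had a median of 0.11 in KD-1 against KD-2, near the 0.12 of all genes tested, from -1.52 for the TEAD cofactor Vgll4 to 0.87 for Tead4. Yap1 itself had 11674 (control), 14040 (KD-1) and 13062 (KD-2) reads, log2 ratios to control of 0.04 and 0.06.

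Markers of fibroblasts moved with the contractile genes. Of 15 fibroblast markers, 8 were past 1.5-fold lower and 0 higher in KD-1 than in control, 13 were higher and 0 lower in KD-2, and 15 were lower in KD-1 than KD-2, with medians of -0.64, 0.80 and -1.61. Of all genes tested, 5.62% were lower in KD-1, 17.1% higher in KD-2 and 16.1% lower between the knockdowns. The markers ranged in KD-1 against KD-2 from -2.69 for Postn, a matricellular protein, to -0.81 for Thy1, and none of them was at 0 reads in any library. Their summed level was 112257 (control), 54125 (KD-1) and 205053 (KD-2) scaled reads. In these bulk libraries, fewer fibroblasts and less of a transcript per fibroblast cannot be told apart, and the part of the feeders in the differences above was not tested. Defining ES cell markers were present in every library, with Pou5f1 at 218, 235 and 210 RPKM and Nanog at 275, 323 and 251 RPKM in control, KD-1 and KD-2. Of 10 ES cell markers, 3 were past 1.5-fold higher and 0 lower in KD-1 than KD-2 (13.9% and 16.1% of all genes), with a median of 0.41, from -0.48 for Utf1 to 0.92 for Dppa5a. With library totals 1 was higher and 1 lower (7.37% and 21.1% of all genes), with a median of 0.24 beside -0.04 for all genes.

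Levels of the smooth muscle markers differed among themselves. Myh11, the smooth muscle myosin heavy chain, was at 0.380 (control), 0.187 (KD-1) and 0.769 (KD-2) RPKM, and Lmod1 at 0.483, 0.267 and 0.983 RPKM. Both were lowest in KD-1 and highest in KD-2, as was Actg2 at 1.08, 0.595 and 2.69 RPKM. Smtn, which encodes smoothelin, was at 1.02, 1.34 and 2.08 RPKM, and Myocd was near 0. Of 8 smooth muscle markers, 7 averaged 10 or more reads, with 3 past 1.5-fold lower and 1 higher in KD-1 than KD-2 (16.1% and 13.9% of all genes), from -2.0 for Actg2 to 1.25 for Synpo2. The markers of striated muscle with at least this mean, 5 of 8, ran from -1.16 for Acta1 to 0.47 for Tnnt2, and Actc1, Myod1 and Myog stayed under it. Of 4 endothelial markers, 3 reached it and ran from 0.15 for Kdr to 0.84 for Pecam1.

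Counted per 1000 reads of the 15 fibroblast markers, the members kept different orders among the libraries. Cnn1 was at 2.32 (control), 2.25 (KD-1) and 2.41 (KD-2), and Acta2 at 30.7, 22.2 and 29.5. Ctgf was at 40.04 (control), 88.2 (KD-1) and 26.6 (KD-2), and Srf at 17.1, 29.4 and 11.2. On this scale the log2 difference between KD-1 and KD-2 was -0.41 for Acta2, -0.10 for Cnn1 and 0.25 for Myl9. It was 0.56 for Cyr61, 0.67 for Tagln, 0.84 for Tpm2 and 1.04 for Tpm1, and reached 1.39 for Srf and 1.73 for Ctgf. Col3a1 made up 52.6% (control), 43.5% (KD-1) and 55.8% (KD-2) of the marker reads. Without it the difference was -0.77 for Acta2, -0.46 for Cnn1 and -0.11 for Myl9, so that the sign for Myl9 rests on Col3a1, and it ranged from 0.21 for Cyr61 to 1.37 for Ctgf among the other members. This scale was chosen after the values were seen, and its values are descriptions.

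Among the 12743 genes averaging 100 or more reads, the 5 whose pair of log2 ratios to control lay nearest to the median of the 6 contractile genes (-0.73 in KD-1 and 0.65 in KD-2) were Reep5, Col28a1, Aox1, Ppic and Eya4. Reep5, which shapes the endoplasmic reticulum, was nearest, at -0.74 and 0.63. It had 668 (control), 468 (KD-1) and 1114 (KD-2) reads. Col28a1, a collagen chain, was at -0.75 and 0.63 with 131, 91 and 219 reads. Ppic, a cyclophilin of the secretory pathway, was at -0.70 and 0.62 with 4246, 3052 and 7028 reads. The measure is the Euclidean distance over 2 ratios that share the control library, from 3 libraries in all.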

How the data were processed

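Total RNA of 1 control, 1 KD-1 and 1 KD-2 culture was depleted of ribosomal RNA and sequenced from 1 end with reads of 50 bp. The authors trimmed reads with Trim Galore 0.4.1, mapped them with TopHat2 2.1.1 to mm10, and deposited the unnormalized read count of each gene, from reads passing a mapping quality filter. The methods name featureCounts and the submitters' processing notes name HTSeq. Lines that name no gene held between 23.0% and 25.6% of the counts and were left out.

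Log2 ratios were computed from counts scaled by upper-quartile factors (edgeR 4.0.16, R 4.3.3) with a pseudocount of 0.5 scaled reads. Intervals of 95% are exact (Clopper-Pearson on the share of reads of both libraries) and cover counting error only. The fixed dispersion of the study came from spike-ins, which were not used here, so its likelihood ratio test was run only as an alternative, at dispersions of 0.01, 0.04 and 0.16. Both knockdowns against control were tested by quasi-likelihood in edgeR with TMM factors, adjusted over all 21164 genes with a read, and also by DESeq2 1.42.0 (Wald). Other alternatives were TMM, DESeq2 size factors, library totals, upper-quartile scaling after a minimum mean of 10 reads, a pseudocount of 5, a fold above 2, and minimum means of 1 and 100 reads for the lists. RPKM used exon lengths of GENCODE M21 (GRCm38) and library totals. Coordinates are of the same annotation, in which Ctgf and Cyr61 are named Ccn2 and Ccn1. Exon lengths were found for 139 of 140 listed genes. One gene list is not reported here.

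The members, gene lists and tests were chosen with earlier results of these data known. Genes named are the 9 members, their paralogs, Nup153, the highest and lowest gene of each reported list in KD-1 against KD-2, and the 5 genes nearest to the contractile median. Any further gene was picked with its values in view. Python 3.11.15, pandas 2.3.3, numpy 2.4.6, scipy 1.17.1 and matplotlib 3.10.9 were used.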

Additional observations from a re-analysis of the deposited data

How the results depend on the processing

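Under the 4 other scalings and the pseudocount of 5, the log2 ratios of all 9 members kept their sign in each of the 3 comparisons of single libraries. Scaling by library totals shifted the median of all genes tested by 0.16 in KD-2 against control and by -0.17 in KD-1 against KD-2, and DESeq2 size factors shifted the latter by -0.10. With library totals, 7 members were past 1.5-fold higher in KD-2 than in control in place of 4, against 23.6% of all genes tested. With TMM, DESeq2 size factors and library totals 8 in place of 7 were lower in KD-1 than KD-2, which adds Srf. Of all genes tested, 17.8%, 19.0% and 21.1% were lower in the same order of scalings. With a fold above 2, 2 members passed in KD-1, 0 in KD-2 and 6 between both knockdowns (4.62%, 7.27% and 11% of all genes).

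With the likelihood ratio test, a dispersion of 0.01 called 4 members in KD-1, 4 in KD-2 and 7 between both knockdowns. Of all 24421 genes counted, it called 3.16%, 12.8% and 16.2%. A dispersion of 0.04 called 0, 0 and 4 (0.287%, 0.238% and 2.52% of all genes counted), and one of 0.16 called 0, 0 and 0 (0% in each). In the group test the log2 ratio of Tagln changed from 0.010 with TMM to -0.013 with upper-quartile normalization and to -0.0060 in DESeq2, at unadjusted p-values of 0.978 and 0.992. Leaving out KD-1 or KD-2 leaves no residual degrees of freedom and gives the ratios of the single libraries. The count past 1.5-fold in a gene list stayed within 1.5 times in 49 of 66 list settings in KD-1 against control, 53 of 66 in KD-2 against control and 56 of 66 in KD-1 against KD-2. This count adds higher and lower genes, so a change of direction within a list does not show in it. No paired analysis was possible because each condition has 1 library. Counting error was widest for Cnn1, which had 132 to 493 reads.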
